A study of Homo sapiens with 7 samples.

Results

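Genes for folding, oxidising, moving and degrading proteins in the endoplasmic reticulum (ER) were measured in K562 cells at successive steps of dasatinib resistance. The 45 genes listed for the XBP1 and ATF6 arm of the unfolded protein response were taken by name; no measured value entered the rule, although earlier results of these data were known when the list was drawn up. A symbol in the deposited tables matched 44 of the 45, all 44 passed the filter on low counts, and they were analysed among the 10452 genes tested out of 25702 gene IDs counted. The remaining gene, WFS1, had a row only under its RefSeq gene ID, held between 1 and 11 counts in each library, and was too low to test. In the early stage lines 24 of the 44 genes fell (10.1% of all genes tested did) and none rose (7.92%). The chaperone HSPA5 was among those that fell, by 3.99-fold. Of 31 chaperones of the cytosol and mitochondria, 16 rose and 3 fell.

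Each of 7 K562 lines gave 1 RNA library. These cells, a long-established line from chronic myeloid leukemia, carry the BCR::ABL1 fusion, whose kinase is the target of dasatinib. The 2 control lines were drug naive K562 cells and K562 cells kept in the vehicle DMSO, and the resistant (DasR) lines were K562 cells in long-term culture with dasatinib, sampled at 10, 15 and 25 nM (early stage) and at 50 and 200 nM (late stage) in the course of 1 dose escalation. The study formed the early and late stage groups from the clustering of these same libraries, and each line was sequenced once. The p-values therefore measure the spread between the 2 control lines and between resistant lines of different dose. The resistant lines are successive samples of 1 selection and not independent selections. Because lines were grouped by their similarity in these same values, the p-values may be too small. The libraries held 21007761 counts for drug naive cells, 24037893 for the DMSO line, 27808639, 27844799 and 20059656 at 10, 15 and 25 nM, and 20827519 and 21588772 at 50 and 200 nM. Levels are given as CPM, counts scaled to a common library size by the TMM method. Changes are log2 fold changes with their standard errors, and every FDR, written as edgeR FDR, comes from the quasi-likelihood test of edgeR, adjusted by Benjamini-Hochberg over the 10452 genes, with 2 control, 3 early stage and 2 late stage lines in 1 fit and a threshold of 0.005.

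The ER folds proteins bound for the cell surface and for secretion. When unfolded proteins accumulate there, the sensors IRE1 (gene ERN1), ATF6 and PERK (gene EIF2AK3) respond: IRE1 splices the mRNA of the transcription factor XBP1, ATF6 is cut to release a transcription factor, and PERK phosphorylates eIF2 alpha, which slows translation and raises ATF4. Spliced XBP1 and cleaved ATF6 act on genes for chaperones, disulfide enzymes, the translocon and ER-associated degradation. Neither the splicing of XBP1 nor the cleavage of ATF6 can be read from counts per gene.

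Relative to both controls, 24 of the 44 genes fell at the early stage and none rose. Among all 10452 genes, 10.1% fell and 7.92% rose in this comparison. At an FDR of 0.05 the number lower was 37, beside 24.0% of all genes, and it was again none for higher genes, 1 of which had an unadjusted p under 0.05 (26.6% of all genes). The median change of the 44 genes was -0.68 on the log2 scale, with a median over all genes of 0.00, and 41 of the 44 estimates were negative. In 38 of the 44 genes all 3 early stage lines lay below both controls (35.2% of all genes), and in 2, SDF2L1 and DERL1, they lay above (35.4%). In the late stage lines 12 of the 44 genes fell and none rose, beside 4.56% and 3.42% of all genes, with a median change of -0.56. Here 27 were lower at an FDR of 0.05 (17.6% of all genes), 34 had both late stage lines below both controls (35.2%) and 1, DERL1, had them above (33.4%). An unadjusted p under 0.05 with a higher late stage level was found for 1 of the 44 (22.3% of all genes). Of the genes that fell, 11 did so at both stages, 13 passed the threshold at the early stage alone and EDEM2 at the late stage alone. In 34 genes all 5 resistant lines lay below both controls, which held for 25.1% of all genes. The early and late stage comparisons share their 2 control lines.

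The number of genes called depended on single libraries. Without the drug naive line 7 of the 44 genes were lower in the early stage lines (208 genes called among all, against 1881 with every library), and without the DMSO line 17 (529 genes). Without the 10, 15 or 25 nM line it was 15, 15 and 11, with 1111, 889 and 535 genes called among all. HSPA5, HYOU1, SEL1L, HERPUD1, EDEM1, ERN1 and SEC24D kept their early stage call whichever 1 of the 7 libraries was left out, and each of the other 17 lost it in at least 1 case. Late stage calls numbered 7, 8 and 5 without the 10, 15 and 25 nM lines, against 12 with every library. HSPA5 kept its late stage call in each of these fits, and DNAJB9, DNAJB11 and PDIA3 lost it in each. Among all genes 590, 596 and 274 were called in these fits, against 834 with every library. Leaving out a control or a late stage line left 1 line in that group. The median late stage change of the 44 genes was then -0.41 without the drug naive line and -0.63 without the DMSO line. It was -0.60 without the 50 nM line and -0.49 without the 200 nM line. All changes of the 25 genes named by the rule for values by line kept their sign against the controls in each of these fits.

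**Figure D1:**
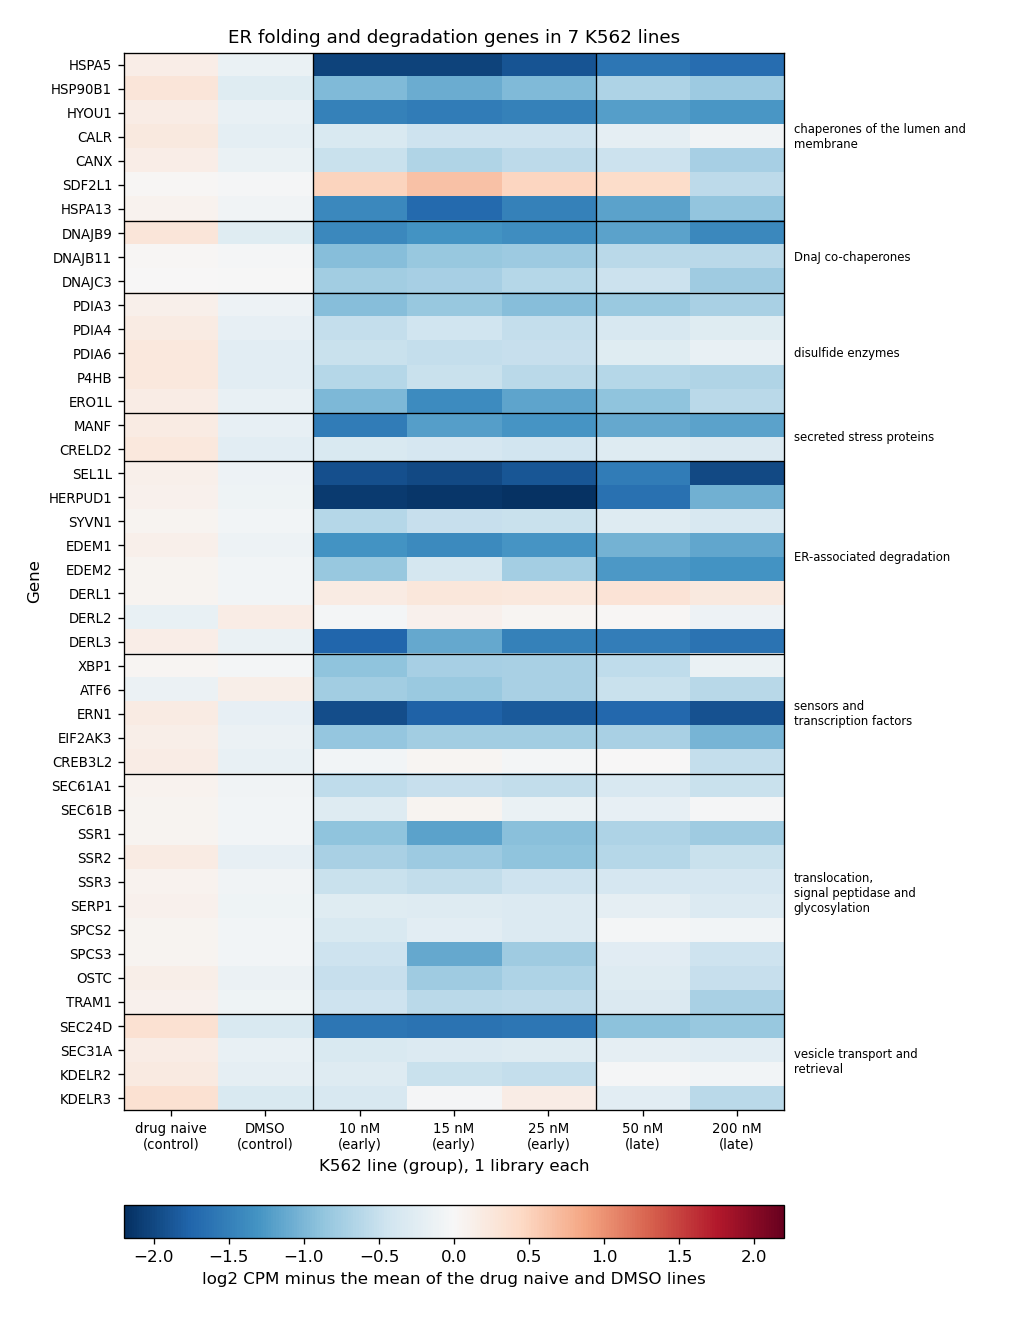
Heatmap of the 44 genes (vertical axis, grouped by role) in each of the 7 K562 lines (horizontal axis, 1 library each). Colour gives log2 CPM minus the mean of the drug naive and DMSO lines, blue for lower and red for higher; the deepest blue is in HERPUD1, SEL1L, HSPA5 and ERN1, and SDF2L1 is red at 10 to 50 nM and blue at 200 nM.

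Promoters were searched for the sites through which XBP1 and ATF6 are known to act. The genes were listed as the XBP1 and ATF6 arm, so an excess of these sites follows from how the list was made. Such an excess is not a result of these data and has no bearing on why levels changed. The ER stress response element (ERSE) is CCAAT and CCACG separated by 9 bases, and its variant (ERSE-II) is ATTGG and CCACG separated by 1 base. Both strands were searched, from 250 bases before to 50 bases after each start in the RefSeq promoter table (GRCh38.p14), which held 39 of the 45 genes. An ERSE was found in 8 of the 39 (20.5%), HSPA5, HSP90B1, CALR, CANX, PDIA6, SERP1, XBP1 and CRELD2, and in 0.0769% of all 35116 promoters (0.156% of the 8339 tested genes in the table). An ERSE-II was found in HYOU1, HERPUD1 and SDF2L1 (7.69% of the 39), and in 0.0541% of all promoters (0.144% of the tested genes in the table). The stretches below are the motif matches of 7 of these genes. HSPA5, HSP90B1, XBP1, HYOU1 and HERPUD1 fell in the early stage lines, and CALR and SDF2L1 were not called with every library. The matches are printed along the direction of each gene, with the motif in capitals and 20 flanking bases on either side. Where a motif lies on the opposite strand the capitals start with CGTGG.
HSPA5: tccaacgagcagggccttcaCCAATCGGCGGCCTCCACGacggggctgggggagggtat
HSP90B1: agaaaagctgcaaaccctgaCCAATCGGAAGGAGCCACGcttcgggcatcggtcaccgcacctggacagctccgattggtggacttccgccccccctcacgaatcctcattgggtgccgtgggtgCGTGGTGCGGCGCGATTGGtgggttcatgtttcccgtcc
XBP1: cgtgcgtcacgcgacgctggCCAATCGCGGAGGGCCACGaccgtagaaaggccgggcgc
CALR: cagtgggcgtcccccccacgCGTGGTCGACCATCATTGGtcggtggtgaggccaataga
HYOU1: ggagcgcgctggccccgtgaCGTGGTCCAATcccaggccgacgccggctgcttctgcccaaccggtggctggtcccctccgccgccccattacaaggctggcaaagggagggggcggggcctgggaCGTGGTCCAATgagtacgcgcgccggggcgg
HERPUD1: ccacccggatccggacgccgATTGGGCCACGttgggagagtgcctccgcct
SDF2L1: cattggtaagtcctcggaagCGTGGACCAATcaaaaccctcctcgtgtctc
These lie at chr9:125241371-125241429 on the minus strand (HSPA5), chr12:103930196-103930359 on the plus strand (HSP90B1, 2 matches), chr22:28800583-28800641 on the minus strand (XBP1), chr19:12938364-12938422 on the plus strand (CALR), chr11:119057254-119057410 on the minus strand (HYOU1, 2 matches), chr16:56932005-56932055 on the plus strand (HERPUD1) and chr22:21642094-21642144 on the plus strand (SDF2L1). The match of HSPA5 covers bases -66 to -48 from the start, that of XBP1 bases -52 to -34 and that of HERPUD1 bases -117 to -107.

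Counts of genes that fell, here and by role below, are to be read against 10.1% of all genes at the early and 4.56% at the late stage. Of the 11 tested genes with an ERSE or ERSE-II, 5 fell in the early stage lines (HSPA5, HSP90B1, XBP1, HYOU1 and HERPUD1), with a median change of -0.58 over the 11. Of the 27 tested genes in the promoter table without either motif, 16 fell, with a median of -0.71. In the late stage lines 3 of the 11 and 8 of the 27 fell. Outside the list, 14 tested genes held an ERSE or ERSE-II, of which 2 fell and none rose in the early stage lines and none passed the threshold in the late stage lines, with medians of -0.24 and -0.18. The 2 that fell were ERO1LB, under its current symbol ERO1B, and SETD3, named because of these results. ERO1LB passed the filter on low counts through the controls alone, so that a lower level was the direction it could show. The site TGACGTGG, bound by XBP1 and holding CCACG on the opposite strand, was found in SSR3, HYOU1 and KDELR3. These are 7.69% of the 39, against 0.729% of all promoters and 1.27% of the tested genes. In HYOU1 the site overlaps the first ERSE-II. CCACG by itself was in 30 of the 39 (76.9%) and in 38.1% of all promoters (58.3% of the tested genes). TGATGNAA, the site of C/EBP-ATF dimers, was in 2 of the 39 (HERPUD1 and CREB3L2) and in 3.62% of all promoters (2.52% of the tested genes). A match describes these letters only, and no binding was measured.

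Chaperones of the ER lumen hold unfolded chains and release them as they fold. HSPA5 (BiP, the Hsp70 of the ER, gene ID 3309, hg19 chromosome 9 from 127997132 to 128003661) stood at 1874 CPM in the drug naive line and 1518 CPM in the DMSO line, 411, 409 and 454 CPM in the 10, 15 and 25 nM DasR lines, and 559.5 and 530.2 CPM in the 50 and 200 nM DasR lines. Both control lines were far above all 5 resistant lines, and the late stage lines lay above the early stage lines. The mean was 1696 ± 252 CPM in the controls (SD, n = 2), 425 ± 25.5 CPM over the early stage lines (n = 3) and 545 ± 20.7 CPM in the late stage lines (n = 2). HSPA5 fell 3.99-fold in the early stage lines (log2 -2.00, standard error 0.11, edgeR FDR 7.76e-05) and 3.11-fold in the late stage lines (log2 -1.64, standard error 0.12, edgeR FDR 0.000551).

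HYOU1, the exchange factor that resets HSPA5 (gene ID 10525, hg19 chromosome 11 from 118914899 to 118927938), stood at 912 and 729 CPM in the drug naive and DMSO lines, 292, 282 and 292 CPM at 10, 15 and 25 nM, and 352 and 337 CPM at 50 and 200 nM. As for HSPA5, controls, late stage and early stage lines formed 3 separate ranges. It fell 2.84-fold at the early stage (log2 -1.51, standard error 0.11, edgeR FDR 0.000173) and 2.38-fold at the late stage (log2 -1.25, standard error 0.12, edgeR FDR 0.000938). HSP90B1 (GRP94, the Hsp90 of the ER, gene ID 7184, hg19 chromosome 12 from 104323885 to 104347709) gave 1522 and 1063 CPM in the drug naive and DMSO lines, 647, 595 and 646 CPM at 10, 15 and 25 nM, and 792 and 735 CPM at 50 and 200 nM. The drug naive line was well above the DMSO line, and both were above every resistant line. HSP90B1 fell 2.05-fold in the early stage lines (log2 -1.04, standard error 0.15, edgeR FDR 0.00182) and missed the threshold in the late stage lines (log2 -0.76, standard error 0.16, edgeR FDR 0.0125). HSPA13, another Hsp70 of the ER membrane system (gene ID 6782, hg19 chromosome 21 from 15743436 to 15755805), stood at 129 and 116 CPM in the drug naive and DMSO lines, 45.6, 37.1 and 43.5 CPM at 10, 15 and 25 nM, and 53.7 and 67.2 CPM at 50 and 200 nM. No group overlapped another, and the 200 nM line was the highest of the resistant lines. The change was -1.54 at the early stage (standard error 0.13, edgeR FDR 0.000348) and -1.02 at the late stage (standard error 0.15, edgeR FDR 0.00356).

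The lectin chaperones calreticulin and calnexin, which hold glycoproteins in the ER, moved less. CALR was at 733 and 539.7 CPM in the drug naive and DMSO lines, 500.5, 461 and 461 CPM at 10, 15 and 25 nM, and 547 and 594 CPM at 50 and 200 nM, and CANX had log2 changes of -0.58 (early) and -0.61 (late). Neither passed 0.005, with edgeR FDR values of 0.0345 and 0.00734 at the early stage, and the late stage lines of CALR overlapped the controls. SDF2L1, a partner of HSPA5 and its co-chaperones (gene ID 23753, hg19 chromosome 22 from 21996591 to 21998588), went the other way in 4 resistant lines, with 95.7 and 93.2 CPM in the drug naive and DMSO lines, 133, 148 and 131 CPM at 10, 15 and 25 nM, and 125 and 63.5 CPM at 50 and 200 nM. All 3 early stage lines and the 50 nM line were above the controls, and the 200 nM line was below them. Its early stage change of 0.54 missed the threshold in the fit to all libraries (edgeR FDR 0.114) and passed it when the late stage lines were kept out of the fit (edgeR FDR 0.00395), or when the 50 nM (0.00433) or 200 nM line (0.00427) was left out. Among the 4 nearest tested genes on either side on chromosome 22, looked at after these values were seen, all but YPEL1 were above the controls at 10 to 50 nM and near or below them at 200 nM, and none was called. Examples were UBE2L3, for which values relative to the control mean were 0.77, 0.64, 0.70, 0.92 and -0.11 on the log2 scale from 10 to 200 nM, YDJC with 0.95, 0.95, 0.81, 0.80 and -0.17, and PPIL2 with 1.22, 0.99, 1.05, 1.24 and 0.12. For SDF2L1 these values were 0.49, 0.65, 0.47, 0.40 and -0.57. Whether the region and the gene moved for the same reason was not tested.

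Compared per gene length (RPKM, that is CPM divided by the deposited gene length in kilobases), HSP90B1 (465) and HSPA5 (428) had the highest levels of the 44 genes in the control lines, followed by CANX (353), CALR (333) and P4HB (242). In the early stage lines CALR (248), CANX (236), HSP90B1 (226), P4HB (161) and SDF2L1 (157) all stood above HSPA5 (107). These are levels, and their order was not tested. The lowest RPKM in the controls was that of DERL3 (4.67), followed by EIF2AK3 (6.81). On the CPM scale the 44 genes were well expressed, with a median over genes of 116 for the mean of the 7 lines, against 47.2 for all genes tested.

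All 3 DnaJ co-chaperones, which bring substrates to HSPA5 and start its ATPase, fell in the early stage lines. DNAJB9 (ERdj4, gene ID 4189, hg19 chromosome 7 from 108210311 to 108215294) stood at 45.1 and 31.3 CPM in the drug naive and DMSO lines, 14.0, 15.0 and 14.6 CPM at 10, 15 and 25 nM, and 16.6 and 14.0 CPM at 50 and 200 nM. The drug naive line was the highest, and the 5 resistant lines lay close together below both controls. It fell at both stages (early log2 -1.39, standard error 0.17, edgeR FDR 0.00108; late log2 -1.32, standard error 0.19, edgeR FDR 0.00344). DNAJB11 (ERdj3, gene ID 51726, hg19 chromosome 3 from 186285192 to 186303589) stood at 98.5 and 94.3 CPM in the drug naive and DMSO lines, 50.2, 54.3 and 55.5 CPM at 10, 15 and 25 nM, and 63.6 and 64.2 CPM at 50 and 200 nM. The controls were close to each other, and no groups overlapped. The changes were -0.85 (standard error 0.08, edgeR FDR 0.000513) and -0.59 (standard error 0.09, edgeR FDR 0.00418). DNAJC3 (p58IPK, gene ID 5611, hg19 chromosome 13 from 96329393 to 96447242), at 107 and 106 CPM in the drug naive and DMSO lines, 62.9, 64.0 and 69.0 CPM at 10, 15 and 25 nM, and 77.3 and 61.9 CPM at 50 and 200 nM, was below both controls in every resistant line. The early stage change passed the threshold (log2 -0.71, standard error 0.11, edgeR FDR 0.00249) and the late stage change did not (log2 -0.62, standard error 0.12, edgeR FDR 0.00936).

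Of the 5 disulfide enzymes, which form and rearrange cysteine bridges, 2 fell at the early and 1 at the late stage. PDIA3 (ERp57, which works with calnexin and calreticulin, gene ID 2923, hg19 chromosome 15 from 44038592 to 44065477) stood at 389 and 331 CPM in the drug naive and DMSO lines, 187, 201 and 187 CPM at 10, 15 and 25 nM, and 203 and 220.2 CPM at 50 and 200 nM. All resistant lines lay below both controls, the late stage lines slightly above the early stage lines. It fell 1.88-fold (log2 -0.91, standard error 0.10, edgeR FDR 0.000686) and 1.70-fold (log2 -0.77, standard error 0.11, edgeR FDR 0.0031) at the 2 stages. ERO1L, the oxidase that recharges protein disulfide isomerase (gene ID 30001, hg19 chromosome 14 from 53106633 to 53162618), stood at 128 and 100.5 CPM in the drug naive and DMSO lines, 56.9, 43.5 and 50.8 CPM at 10, 15 and 25 nM, and 61.3 and 75.4 CPM at 50 and 200 nM. The 15 nM line was the lowest and no resistant line reached the controls. Its early stage change was -1.18 (standard error 0.16, edgeR FDR 0.00154) and its late stage change -0.74 (standard error 0.18, edgeR FDR 0.0181, not past the threshold). P4HB (protein disulfide isomerase), PDIA4 and PDIA6 had early stage changes between -0.59 and -0.51 and did not pass 0.005, although their early stage lines were below both controls. MANF, a secreted stress protein (gene ID 7873, hg19 chromosome 3 from 51422722 to 51426828), stood at 47.1 and 36.3 CPM in the drug naive and DMSO lines, 14.1, 17.8 and 16.7 CPM at 10, 15 and 25 nM, and 19.0 and 18.3 CPM at 50 and 200 nM. It fell at both stages without overlap (early log2 -1.36, standard error 0.15, edgeR FDR 0.000814; late log2 -1.16, standard error 0.17, edgeR FDR 0.00363). CRELD2, the other secreted protein, was near 10.9 CPM in the early stage lines and was not called (early -0.40, edgeR FDR 0.104).

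ER-associated degradation draws misfolded proteins out of the ER and ubiquitinates them, and 5 of its 8 genes, DERL3 among them, fell at the early and 4 at the late stage. HERPUD1, a scaffold of the ubiquitin ligase complex (gene ID 9709, hg19 chromosome 16 from 56966054 to 56978776), had the most negative early stage estimate of the 44 genes, at 112 CPM in the drug naive line and 98.3 CPM in the DMSO line, 24.4, 23.8 and 23.2 CPM in the 10, 15 and 25 nM DasR lines, and 33.5 and 50.1 CPM in the 50 and 200 nM DasR lines. The early stage lines were nearly equal, the 50 nM line lay above them and the 200 nM line higher still, with both controls above all. HERPUD1 fell 4.41-fold at the early stage (log2 -2.14, standard error 0.16, edgeR FDR 0.000207) and 2.51-fold at the late stage (log2 -1.33, standard error 0.18, edgeR FDR 0.00281). SEL1L, the adaptor that links substrates to the ligase (gene ID 6400, hg19 chromosome 14 from 81937891 to 82000197), stood at 291 and 247 CPM in the drug naive and DMSO lines, 70.1, 67.4 and 72.6 CPM at 10, 15 and 25 nM, and 92.8 and 67.8 CPM at 50 and 200 nM. Early and late stage lines overlapped, the 200 nM line being among the lowest, and both lay far below the controls. SEL1L fell 3.85-fold (log2 -1.94, standard error 0.14, edgeR FDR 0.000186) and 3.35-fold (log2 -1.75, standard error 0.16, edgeR FDR 0.000893). SYVN1 (HRD1, the ligase itself, gene ID 84447, hg19 chromosome 11 from 64889252 to 64902003) changed less, with 111 and 102 CPM in the drug naive and DMSO lines, 69.0, 74.5 and 75.6 CPM at 10, 15 and 25 nM, and 87.4 and 83.2 CPM at 50 and 200 nM. Controls, late stage and early stage lines did not overlap. Its early stage change passed the threshold (log2 -0.54, standard error 0.08, edgeR FDR 0.0027) and its late stage change did not (log2 -0.32, standard error 0.09, edgeR FDR 0.0379).

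EDEM1 and EDEM2, which trim mannose and mark glycoproteins for degradation, fell at both stages and at the late stage alone, respectively. EDEM1 (gene ID 9695, hg19 chromosome 3 from 5229331 to 5261643) stood at 234 and 202 CPM in the drug naive and DMSO lines, 87.0, 82.6 and 88.8 CPM at 10, 15 and 25 nM, and 106 and 98.7 CPM at 50 and 200 nM. The 3 groups did not overlap, and it fell at both stages (early log2 -1.34, standard error 0.09, edgeR FDR 0.000173; late log2 -1.09, standard error 0.10, edgeR FDR 0.000942). EDEM2 (gene ID 55741, hg19 chromosome 20 from 33703167 to 33735139) stood at 26.9 and 24.6 CPM in the drug naive and DMSO lines, 14.4, 19.7 and 15.3 CPM at 10, 15 and 25 nM, and 10.6 and 10.3 CPM at 50 and 200 nM. The late stage lines were the lowest, below every early stage line, and the 15 nM line was the highest of the resistant lines. Only its late stage change passed the threshold (early log2 -0.64, standard error 0.16, edgeR FDR 0.0144; late log2 -1.30, standard error 0.18, edgeR FDR 0.00291). Among the derlins, which form the exit channel of the membrane, DERL3 (gene ID 91319, hg19 chromosome 22 from 24176690 to 24181315) stood at 16.5 and 13.4 CPM in the drug naive and DMSO lines, 4.40, 6.77 and 5.25 CPM at 10, 15 and 25 nM, and 5.12 and 4.78 CPM at 50 and 200 nM. All resistant lines were below both controls, and the levels were low: DERL3 was the 1 gene of the 44 that passed the filter of 10 CPM through the controls alone, so that a lower level was the direction it could show, and its place among the genes that fell adds no support. Without the filter the early stage change was -1.43 (edgeR FDR 0.00104). The early stage change passed the threshold (log2 -1.45, standard error 0.24, edgeR FDR 0.0031) and the late stage change missed it (log2 -1.59, standard error 0.27, edgeR FDR 0.00569). DERL1 had every resistant line above the controls, with changes of 0.22 (edgeR FDR 0.0617) and 0.26 (edgeR FDR 0.0621) that were not called. DERL2 had overlapping groups and changes of 0.02 and -0.05.

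**Figure D2:**
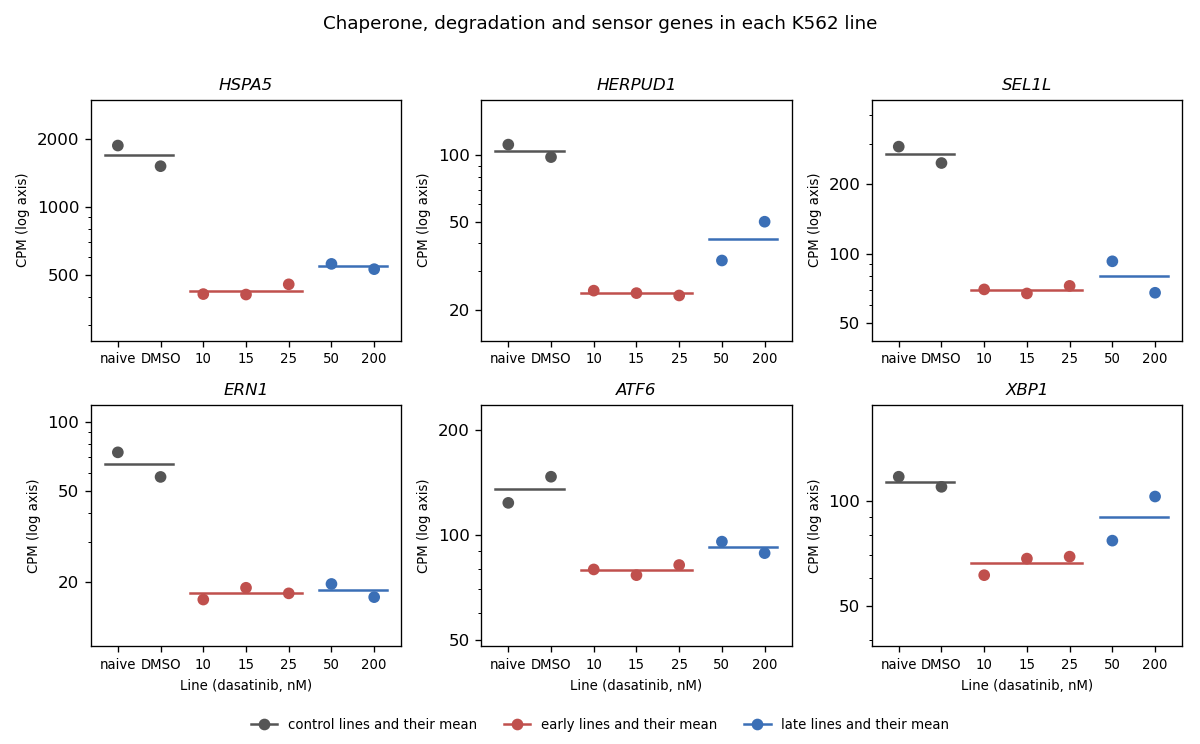
CPM (vertical log axis, different in each panel) of HSPA5, HERPUD1, SEL1L, ERN1, ATF6 and XBP1 in the 7 K562 lines (horizontal axis), with points for single libraries and bars for group means. HSPA5 drops from 1874 and 1518 CPM in the controls to between 409 and 454 CPM in the early stage lines, and XBP1 is at 103 CPM in the 200 nM line, close to the controls at 117 and 109.7.

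The genes of all 3 stress sensors and of XBP1 fell in the early stage lines. ERN1, which encodes IRE1 alpha (gene ID 2081, hg19 chromosome 17 from 62116440 to 62208179), stood at 73.7 CPM in the drug naive line and 57.6 CPM in the DMSO line, 16.9, 19.0 and 17.9 CPM in the 10, 15 and 25 nM DasR lines, and 19.7 and 17.3 CPM in the 50 and 200 nM DasR lines. The early and late stage lines overlapped at a level far below the controls. ERN1 fell 3.66-fold (log2 -1.87, standard error 0.14, edgeR FDR 0.000186) and 3.55-fold (log2 -1.83, standard error 0.15, edgeR FDR 0.000742). ATF6 (gene ID 22926, hg19 chromosome 1 from 161736088 to 161947364) stood at 124 and 147 CPM in the drug naive and DMSO lines, 79.9, 76.9 and 82.2 CPM at 10, 15 and 25 nM, and 95.9 and 88.9 CPM at 50 and 200 nM. Unlike most of the genes it was lower in the drug naive than in the DMSO line, and both were above the resistant lines. Its early stage change passed the threshold (log2 -0.77, standard error 0.10, edgeR FDR 0.00127) and its late stage change did not (log2 -0.55, standard error 0.11, edgeR FDR 0.00946).

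EIF2AK3, which encodes PERK (gene ID 9451, hg19 chromosome 2 from 88856259 to 88991036), stood at 34.5 and 28.9 CPM in the drug naive and DMSO lines, 17.5, 18.6 and 18.5 CPM at 10, 15 and 25 nM, and 19.2 and 15.5 CPM at 50 and 200 nM. The 200 nM line was the lowest, and no resistant line reached the controls. The change was -0.80 at the early stage (standard error 0.14, edgeR FDR 0.00376) and -0.87 at the late stage (standard error 0.15, edgeR FDR 0.00663, not past the threshold). XBP1, the transcription factor that IRE1 activates (gene ID 7494, hg19 chromosome 22 from 29190543 to 29196585), stood at 117 and 109.7 CPM in the drug naive and DMSO lines, 61.3, 68.4 and 69.3 CPM at 10, 15 and 25 nM, and 77.0 and 103 CPM at 50 and 200 nM. The early stage lines were the lowest, the 50 nM line lay between, and the 200 nM line was just below the controls. XBP1 fell 1.71-fold at the early stage (log2 -0.78, standard error 0.13, edgeR FDR 0.00355) and was not called at the late stage (log2 -0.34, standard error 0.15, edgeR FDR 0.115). CREB3L2, a related membrane-bound transcription factor, had overlapping groups and an early stage change of -0.03 (edgeR FDR 0.907).

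Of the 10 genes for translocation, signal peptide removal and glycosylation, 4 fell in the early stage lines and none was called in the late stage lines, where 5 were lower at an FDR of 0.05 (17.6% of all genes). SEC61A1, the pore of the translocon (gene ID 29927, hg19 chromosome 3 from 127770484 to 127790548), stood at 399 and 355 CPM in the drug naive and DMSO lines, 256, 263 and 259.5 CPM at 10, 15 and 25 nM, and 296 and 268 CPM at 50 and 200 nM. The resistant lines formed a narrow range below both controls. Its change was -0.54 at the early stage (standard error 0.09, edgeR FDR 0.00305) and -0.42 at the late stage (edgeR FDR 0.0166). SSR1, SSR2 and SSR3, subunits of the translocon-associated protein complex, all fell at the early stage. SSR1 (gene ID 6745, hg19 chromosome 6 from 7268539 to 7347679) stood at 487 and 445 CPM in the drug naive and DMSO lines, 251, 207 and 245 CPM at 10, 15 and 25 nM, and 290.3 and 271 CPM at 50 and 200 nM, with the 15 nM line the lowest and no overlap. Its changes were -0.99 (edgeR FDR 0.000698) and -0.73, the latter just short of the threshold (edgeR FDR 0.00502).

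SSR2, the next subunit of that complex (gene ID 6746, hg19 chromosome 1 from 155978839 to 155990742), stood at 229 and 179 CPM in the drug naive and DMSO lines, 123, 116 and 110.2 CPM at 10, 15 and 25 nM, and 132 and 144 CPM at 50 and 200 nM. Controls were above all resistant lines, and the drug naive line stood out as the highest. The change was -0.81 (edgeR FDR 0.00221) at the early and -0.57 (edgeR FDR 0.0172) at the late stage. SSR3 (gene ID 6747, hg19 chromosome 3 from 156257342 to 156272938) stood at 471 and 425 CPM in the drug naive and DMSO lines, 317, 309 and 328 CPM at 10, 15 and 25 nM, and 347 and 345 CPM at 50 and 200 nM, again without overlap between any groups, with changes of -0.49 (edgeR FDR 0.00309) and -0.37 (edgeR FDR 0.0184). The other 6, SEC61B, SERP1, SPCS2, SPCS3, OSTC and TRAM1, had early stage changes from -0.76 (SPCS3, a signal peptidase subunit) to -0.12 (SEC61B) and late stage changes from -0.50 to -0.05, none past 0.005. Of the 4 genes for vesicle transport and retrieval, SEC24D, a cargo adaptor of the COPII coat (gene ID 9871, hg19 chromosome 4 from 119643978 to 119759838), fell at the early stage. It was at 172 and 109 CPM in the drug naive and DMSO lines, 45.5, 44.3 and 45.4 CPM at 10, 15 and 25 nM, and 73.4 and 76.9 CPM at 50 and 200 nM. The early stage lines were nearly equal, the late stage lines lay between them and the controls, and the 2 controls were far apart. The early stage change was -1.64 (standard error 0.17, edgeR FDR 0.000651) and the late stage change -0.91 (standard error 0.19, edgeR FDR 0.012). SEC31A and the retrieval receptors KDELR2 and KDELR3 had early stage changes of -0.32, -0.44 and -0.10 and were not called.

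**Figure D3:**
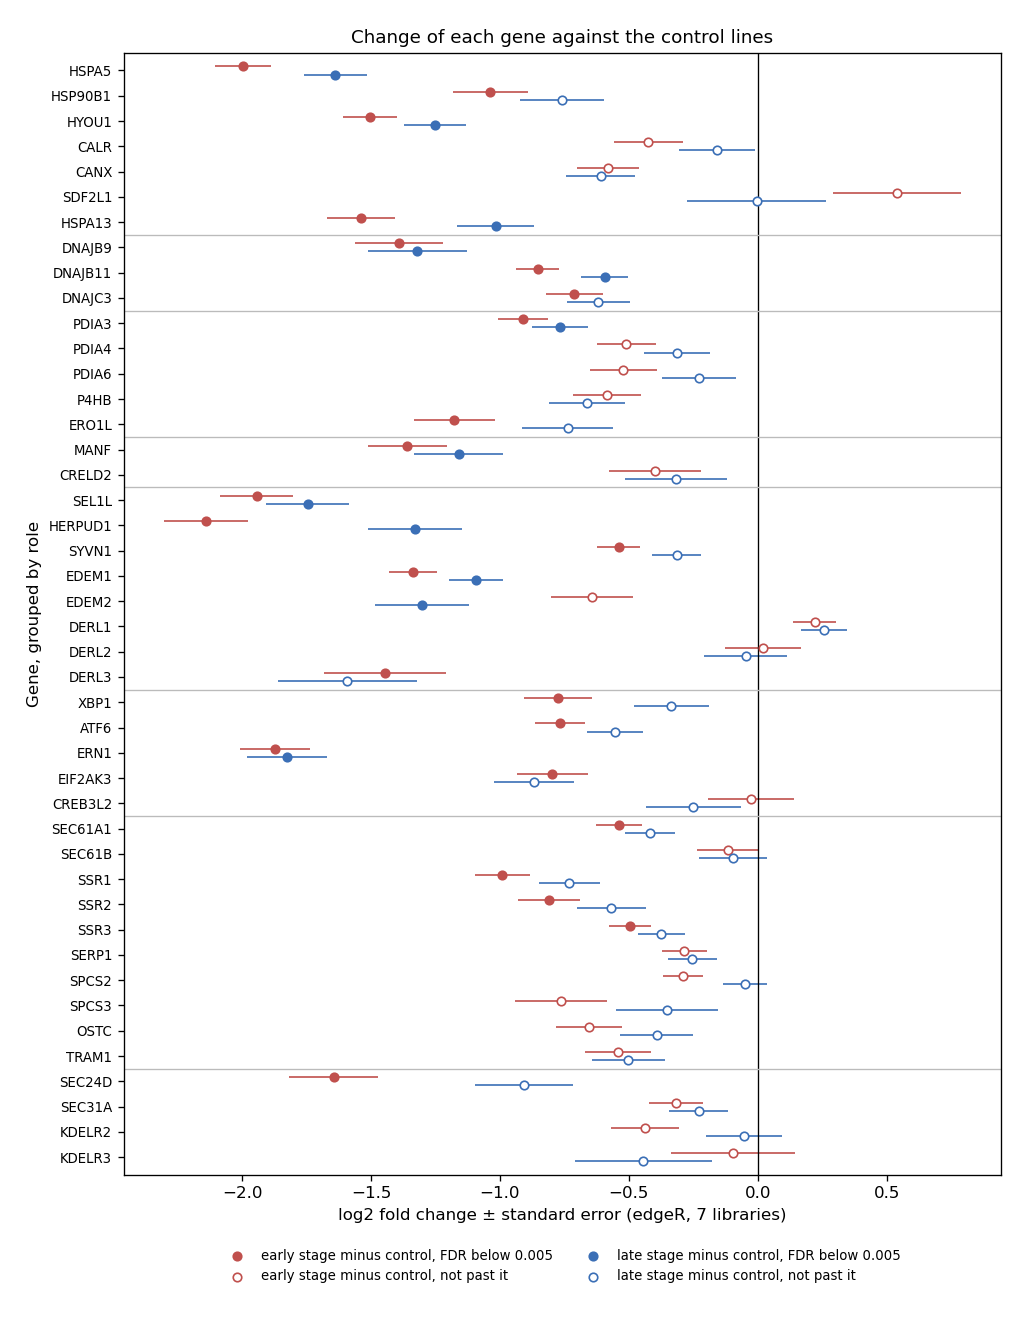
Log2 fold change (horizontal axis) with standard error bars of the 44 genes (vertical axis, grouped by role) in the early stage (red) and late stage (blue) lines against the controls. Filled points passed an FDR of 0.005: 24 early stage and 12 late stage changes, every one below 0.

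The late and early stage lines were then compared directly. None of the 44 genes passed an FDR of 0.005, and neither did any of the 10452 genes, by edgeR's quasi-likelihood test or by limma-voom. DESeq2 called 1135 genes, among them HERPUD1 and SEC24D. At an unadjusted p under 0.05 13 of the 44 were higher at the late stage (16.4% of all genes) and 1 was lower (16.6%), so that the number on either side together was near that of all genes. At an FDR of 0.05, 3 were higher (6.60% of all genes) and 1 was lower (6.10%). The median of the 44 differences was 0.20 on the log2 scale (-0.01 over all genes), 35 were positive (49.3% of all genes), and in 26 genes both late stage lines lay above all early stage lines (26.4% of all genes), in 3 below (26.9%) and in 15 the stages overlapped (46.6%). The sign of the late minus early difference changed in 12 of the 44 genes when 1 library was left out. Without the 50 nM line it became negative for SEL1L, ERN1, DNAJB9, DNAJC3, DERL1, SERP1 and TRAM1, and without the 200 nM line it changed for CANX, CREB3L2, EIF2AK3 and SEC61B. Without the 10 nM line it changed for CANX and SEC61B, and without the 15 nM line for DERL3. The higher 3 were HERPUD1 (log2 0.81, standard error 0.16, edgeR FDR 0.0263), SEC24D (log2 0.74, standard error 0.17, edgeR FDR 0.037) and HSPA13 (log2 0.52, standard error 0.13, edgeR FDR 0.047), and the lower gene was EDEM2 (log2 -0.66, standard error 0.17, edgeR FDR 0.0446). For XBP1 the difference was 0.44 (edgeR FDR 0.068), from 66.3 ± 4.37 CPM (SD, n = 3) at the early stage to 90.0 ± 18.4 CPM (n = 2) at the late stage. Without the 50 nM line, HERPUD1 passed 0.005 (log2 1.07, edgeR FDR 0.00416) and SDF2L1 did in the other direction (log2 -1.11, edgeR FDR 0.00441).

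Single lines within a group also differed. The DMSO line was below the drug naive line in 42 of the 44 genes, with a median difference of -0.25 on the log2 scale, while 48.2% of all genes were lower in the DMSO line and the median over all genes was 0.01. The differences ran from -0.66 (KDELR3) to 0.31 (DERL2). None passed 2-fold, as 1.01% of all genes did. With the DMSO line as the only control the early stage change of HSPA5 was -1.84, that of HSP90B1 -0.75 and that of HERPUD1 -2.04, and with the drug naive line as the only control they were -2.14, -1.27 and -2.23. Between the 50 and 200 nM lines the median difference was -0.07, from -0.98 (SDF2L1) to 0.58 (HERPUD1), and none of the 44 passed 2-fold (3.49% of all genes did). Between the 3 early stage lines the median differences were 0.01 to 0.03 over the 44 genes, and single genes differed by up to 0.61 (DERL3, 15 minus 10 nM) and down to -0.65 (SPCS3, 15 minus 10 nM).

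Counts for other genes of the pathway are to be read against the 10.1% of all genes that fell and 7.92% that rose at the early stage, and the 4.56% and 3.42% at the late stage. In a list of the PERK and ATF4 arm, 11 of 14 tested genes fell at the early and 5 at the late stage, none rose, and the medians were -1.93 and -1.31. ATF4 itself was at 566 and 469 CPM in the drug naive and DMSO lines, 321, 343 and 355 CPM at 10, 15 and 25 nM, and 350.1 and 382 CPM at 50 and 200 nM, with a smaller early stage change (log2 -0.61, standard error 0.11, edgeR FDR 0.00381). Among its known targets, ASNS, asparagine synthetase, was at 937 and 956 CPM in the drug naive and DMSO lines, 187, 177 and 200.1 CPM at 10, 15 and 25 nM, and 261 and 301 CPM at 50 and 200 nM and fell at both stages (early log2 -2.33, standard error 0.10, edgeR FDR 6.17e-05; late log2 -1.75, standard error 0.11, edgeR FDR 0.000317). DDIT3, the transcription factor CHOP, was at 112 and 94.1 CPM in the drug naive and DMSO lines, 24.6, 28.4 and 27.9 CPM at 10, 15 and 25 nM, and 32.1 and 25.9 CPM at 50 and 200 nM. It had changes of -1.94 (edgeR FDR 0.00017) and -1.83 (edgeR FDR 0.000668). CHAC1, which degrades glutathione, STC2, a secreted glycoprotein, and DDIT4, an inhibitor of mTORC1, had the most negative early stage changes of this list that passed the threshold, at -3.66, -2.91 and -2.89.

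Other ER folding enzymes, 25 of which were tested, had a median of -0.22 in the early stage lines, with 7 lower and 1 higher. The 3 with the most negative changes that passed the threshold were ERO1LB, the second ER oxidase (-4.94, from 32.1 ± 7.36 CPM in the controls, SD, n = 2, to 1.03 ± 0.235 CPM, n = 3, a gene that also passed the filter through the controls alone), PDIA5 (-1.24) and TXNDC12 (-1.14). PRDX4, the ER peroxiredoxin, rose in both stages (0.55 and 0.73, edgeR FDR 0.0027 and 0.00223). In the glycoprotein folding cycle 6 of 11 fell and none rose at the early stage, with a median of -0.43. CLGN, a calnexin relative best known from the testis, was at 38.6 and 17.6 CPM in the drug naive and DMSO lines, 0.696, 1.59 and 0.808 CPM at 10, 15 and 25 nM, and 0.390 and 0.650 CPM at 50 and 200 nM, and it too passed the filter through the controls alone. UGGT2, a folding sensor for glycoproteins, and MOGS, the first glucosidase of the cycle, had early stage changes of -1.09 and -0.88.

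Of 24 other genes of ER-associated degradation, 2 fell and 1 rose, shares no higher than those of all genes, with a median of -0.19. Of these, UBXN4, an anchor of the p97 ATPase, fell at the early stage (-0.68), and UFD1L, a p97 cofactor encoded on chromosome 22 like SDF2L1, rose (1.37, edgeR FDR 0.00319). Among 27 other genes of the translocon, signal peptidase and oligosaccharyltransferase 5 fell and none rose (median -0.13), with STT3A, a catalytic subunit of the oligosaccharyltransferase (-1.12), SRPR, the receptor of the signal recognition particle (-1.05), and SRP72 (-0.90) the most negative. Of 23 other COPII and COPI genes 5 fell and none rose (median -0.31), led by SEC23A (-0.78), COPG1 (-0.71) and COPA (-0.69). Of 12 other sensors and regulators 3 fell, ATF6B (-0.82), TMBIM6 (-0.78) and NFYB (-0.67), and NFYA rose (0.75). NFYA and NFYB are subunits of the factor that binds the CCAAT of the ERSE.

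Chaperones outside the ER moved mostly in the other direction, with 23 positive and 8 negative early stage estimates. Of 31 tested genes for chaperones of the cytosol and mitochondria, 16 rose and 3 fell in the early stage lines, and 11 rose and none fell in the late stage lines, with a median of 0.61 at both stages. HSPA1A and HSPA1B, nearly identical inducible Hsp70 genes between which reads may be divided uncertainly, rose by 2.63 and 2.89 at the early stage. HSPH1, their exchange factor, was at 53.8 and 68.9 CPM in the drug naive and DMSO lines, 252, 310.3 and 297 CPM at 10, 15 and 25 nM, and 235 and 220.0 CPM at 50 and 200 nM and rose at both stages (early log2 2.22, standard error 0.15, edgeR FDR 0.000152; late log2 1.89, standard error 0.15, edgeR FDR 0.000668). All resistant lines were above the controls. The 3 that fell at the early stage were the mitochondrial protease LONP1 (-1.16), the mitochondrial Hsp70 HSPA9 (-0.62) and DNAJC7 (-0.56). By line, the median of the 44 ER genes relative to the control mean was -0.67, -0.73, -0.70, -0.49 and -0.59 from 10 to 200 nM, and that of the cytosolic and mitochondrial chaperones was 0.53, 0.62, 0.67, 0.55 and 0.65. For all genes tested the line medians were between -0.02 and 0.01.

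**Figure D4:**
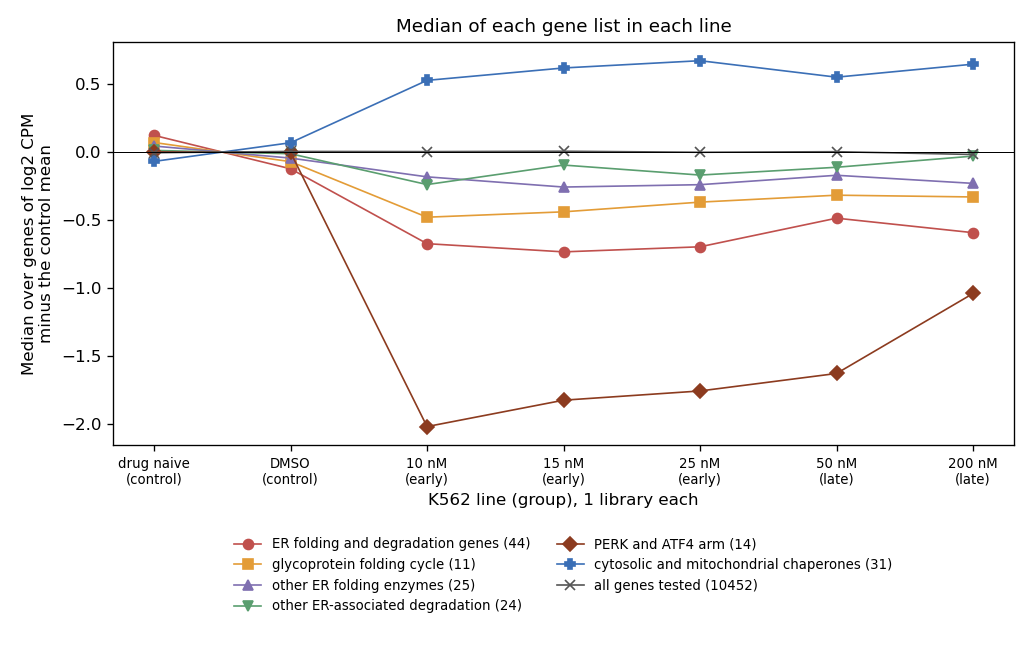
Median over genes of log2 CPM minus the control mean (vertical axis) for 7 gene lists in each K562 line (horizontal axis, 1 library each), with the number of genes in brackets. The 44 ER genes lie between -0.73 and -0.49 in the resistant lines, the PERK and ATF4 arm lower and the cytosolic and mitochondrial chaperones at 0.53 to 0.67.

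The labels call K562 an erythroblast, and all 18 erythroid markers had a row, with HBG2, a fetal globin, the most abundant at between 918 and 3095 CPM. The summed level of the 18 moved with the groups. It was 4587 and 4011 CPM in the drug naive and DMSO lines, 13132, 14544 and 11380.0 CPM at 10, 15 and 25 nM, and 7380.3 and 5133 CPM at 50 and 200 nM. Of the 16 tested, 5 rose in the early stage lines (HBA1, HBA2, HBG1, TFRC and EPOR), beside 7.92% of all genes. In the late stage lines 1 rose, TFRC, beside 3.42% of all genes. At an FDR of 0.05, 13 of the 16 were higher at the early stage, beside 2357 of the 10452 genes tested. At the late stage 1 of the 16 was higher at this FDR, beside 1698 of the 10452 genes. Reads may be divided uncertainly between HBA1 and HBA2 and between HBG1 and HBG2. In bulk RNA, fewer cells of a type and less RNA per cell cannot be told apart, and the part of this change in the ER genes was not tested. Markers of every other cell type summed to less than the erythroid markers in each line, although LYZ reached 103 CPM at 10 nM and ITGA2B 99.4 CPM at 200 nM. The 8 T and B cell markers summed to between 8.43 and 37.2 CPM, with CD3D the most abundant, and the 8 monocyte and granulocyte markers to between 26.7 and 105 CPM, nearly all of it LYZ, with MPO and ELANE at the floor of 3 counts in every line. The 6 stroma markers summed to between 5.06 and 19.7 CPM, and the 5 markers of plasma cells, a cell type rich in ER, to between 2.89 and 20.1 CPM, with TNFRSF17 at 0 counts in every line and SDC1 higher in the early stage lines (log2 3.03), through which alone it passed the filter. The 7 megakaryocyte markers summed to between 16.9 and 107 CPM, with GP9 and PF4 at the floor. Of these, ITGA2B fell in the early stage lines (log2 -2.44) and was not called in the late stage lines (log2 0.40). It was at 66.8 and 52.7 CPM in the drug naive and DMSO lines and at 57.7 and 99.4 CPM at 50 and 200 nM.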

How the data were processed

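RNA of 7 K562 lines was sequenced, 1 library each. STAR alignments to hg19 were counted per gene with featureCounts by the authors, per the methods and labels; the versions and the strand setting are not given in the sources used here, so reads of overlapping genes may be mixed. The labels name polyA RNA and the protocol a depletion of ribosomal RNA. The deposited tables hold counts per gene and a gene length, and 0 per-sample columns were left unused. They also hold log2 fold changes, p-values and FDR values of the authors' own comparisons, none of which was used.

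The filter kept genes reaching 10 CPM in 2 or more libraries. After TMM scaling, edgeR 4.0.16 was used for the tests (quasi-likelihood, prior count 2 for CPM on the log scale, Benjamini-Hochberg FDR of 0.005) in R 4.3.3, in 1 fit of control, early and late stage lines. Alternatives used DESeq2 1.42.0, limma-voom (limma 3.58.1), other scalings and filters, an FDR of 0.05, the 2 compared groups only, and each library left out in turn. The methods were tested on simulated data with independent libraries and the same spread for every gene. That test does not cover serial samples of 1 selection. A floor of 3 counts is 0.108 to 0.150 CPM and covers counting error only. RPKM uses the deposited lengths. Gene positions are from a GRCh37 annotation, the build of hg19, and promoters from RefSeq (GRCh38.p14).

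The members and lists were chosen with earlier results of these data known. Genes of the list given line by line by rule are those that passed the threshold at either stage; so are XBP1, ATF6, ERN1, EIF2AK3, HSPA5 and HSP90B1, and any gene whose late minus early difference passed an FDR of 0.05. Each other list names at most the 3 largest early stage changes that passed in each direction, with ATF4, DDIT3 and ASNS. The erythroid markers are an exception, as all 5 that rose at the early stage are named. CALR and SDF2L1 are also given by line, chosen after their values were seen. A gene that this rule would name is not reported here. ER retrieval signals of the proteins were not analysed here.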

Additional observations from a re-analysis of the deposited data

Results flagged for a closer look

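Among the 44 genes, 4 differed between the late and early stage lines at an FDR of 0.05, and none at 0.005. Of all genes, 6.60% were higher and 6.10% lower at 0.05, so that 4 of 44 is no more than the background. By the quasi-likelihood test of edgeR, adjusted by Benjamini-Hochberg, the late minus early difference on the log2 scale was 0.81 for HERPUD1 (FDR 0.0263), 0.74 for SEC24D (FDR 0.0370) and 0.52 for HSPA13 (FDR 0.0470), all higher in both late stage lines than in every early stage line. For EDEM2 it was -0.66 (FDR 0.0446), with both late stage lines below every early stage line. These differences rest on 2 late and 3 early stage lines.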

How the results depend on the processing

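The changes of the 25 genes of the list named by the rule kept their direction against the controls in every alternative, as did the median changes of the list, while the late minus early difference of 12 of the 44 genes changed sign with 1 library left out, and the numbers of genes called moved widely. Genes called in the early stage comparison numbered 1881, and were 3548 with DESeq2, 4865 at an FDR of 0.05 and 208 to 2066 with 1 library left out. ER genes lower at the early stage numbered 24, 37 at an FDR of 0.05 and 7 to 25 with 1 library left out; the number higher was 1 with only the 2 compared groups in the fit and 0 to 1 with 1 library left out. In the late stage comparison 834 genes were called, 2503 with DESeq2, 1287 without the filter on low counts, 257 with only the 2 compared groups, 3542 at an FDR of 0.05 and 33 to 596 with 1 library left out. ER genes lower at the late stage numbered 12, 26 with DESeq2, 4 with only the 2 groups, 27 at an FDR of 0.05 and 1 to 8 with 1 library left out. Their median changes ran from -0.76 to -0.60 (early), -0.63 to -0.41 (late) and 0.15 to 0.21 (late minus early) with 1 library left out. Between late and early stage lines 1135 genes were called with DESeq2, 295 without the filter, 1328 at an FDR of 0.05 and 0 to 198 with 1 library left out, of which ER genes higher were 2 with DESeq2, 3 at an FDR of 0.05 and 0 to 1, and ER genes lower 1 at an FDR of 0.05 and 0 to 1. The C/EBP-ATF site was in 1 gene and not 2 when only the 250 bases before the start were searched. Fewer libraries or groups leave fewer degrees of freedom for the spread, yet early stage calls rose from 1881 to 2079 with only the 2 compared groups in the fit. The cause of these moves was not tested. No paired analysis was possible, because each line gave 1 library and the lines of 1 group have no counterparts in another. Where a group was left with 1 line, that line was assumed to vary like the other groups. Low counts limit the precision for CLGN (8 to 44 counts in the resistant lines), ERO1LB and, among the 25 genes of the list described by line, for DERL3. Other scalings moved the median of all genes by at most 0.018 on the log2 scale.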
